A study of Rattus norvegicus with 4 samples.

Results

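The retinoid carriers and receptors are 9 genes, taken by symbol from the table of counts: *Rbp4*, *Crabp1*, *Crabp2*, *Rara*, *Rarb*, *Rarg*, *Rxra*, *Rxrb* and *Rxrg*. They are 9 of 30058 genes listed, and 8 of them had at least 1 UMI (unique molecular identifier, a count of 1 captured RNA molecule), against 24495 of all genes. Expression was measured by 3′ single-cell RNA sequencing of dispersed anterior pituitary cells from postpubertal Sprague Dawley rats, with no treatment or transgene in either group. The female group was 1 pool of 4 glands at 44 days of age, taken in diestrus, and the male group 1 pool of 4 glands at 59 days; each pool was run on 2 lanes. The lanes are technical replicates: p-values between the sexes, and between cell types within 1 sex, measure the spread between lanes only. Sex cannot be told apart from pool and age. Cell types were assigned by marker genes that the study named, none of which is a member.

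Vitamin A circulates as retinol bound to RBP4, a small secreted carrier made mainly by the liver and fat tissue. Inside cells retinol is oxidized to retinaldehyde and then to retinoic acid, which the cellular binding proteins CRABP1 and CRABP2 hold in the cytoplasm and deliver. Retinoic acid binds the nuclear receptors RARα, RARβ and RARγ, each of which works as a pair with an RXR, and RXRs also pair with thyroid hormone, vitamin D and oxysterol receptors. In the pituitary gland retinoic acid is known from gland development and from the control of hormone genes.

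The 6845 cells used (3301 female, 3544 male) were 1889 somatotrophs (S), 793 corticotrophs (C), 483 lactotrophs (L), 238 gonadotrophs (G) and 87 thyrotrophs (T), together called hormone-producing cells (HPC), with 2313 folliculostellate cells (FSC), 132 endothelial cells (EC), 549 leukocytes (Le) and 361 erythrocytes (E). Of markers not used for the assignment, *Cdh5* was found in 91.7% of EC, *Ptprc* in 69.4% of Le, *Sox2* in 71.6% of FSC and *Pou1f1* in 66.7% to 94.8% of T, S and L. Other markers were less specific: *Cd74* was found in 96% of Le and 64.9% of C, *Gpha2* in 61.7% of FSC and 68.2% of C, *Krt7* in 6.83% of FSC and 48.3% of G, and *Dcn*, one of the genes that set pericytes aside, in 32.5% of S and 36.8% of T. RNA from broken cells was present in every droplet, since *Gh1* was found in 100% of E, and E therefore serve as the cell type that should lack the members. Over all cells the lanes held 18955509 to 24048021 UMIs, and 30 barcodes occurred in more than 1 lane. *Eif2s3y*, a gene of the Y chromosome, had 1 and 0 UMIs in the female lanes and 2038 and 2100 in the male lanes. *Ddx3y*, another gene of that chromosome, had 8 and 10 against 11 and 14 and did not separate the sexes. The study reports both genes as limited to males among pituitary cells, so the counts of *Ddx3y* differ from its account. The reason was not tested. Levels are in CPM, the UMIs of a gene per 1000000 UMIs of the cell type, given for the smaller and the larger female lane and then for the smaller and the larger male lane by number of cells, with the SD over these 4 lanes. They compare cell types for 1 gene and not genes with each other.

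Among the carriers, *Rbp4* was abundant in S, FSC and female L, *Crabp1* was nearly absent from the 9 cell types, and *Crabp2* had no UMI. *Rbp4* had 21842 UMIs in the whole table and a UMI in 88% of S (exact 95% Clopper-Pearson interval 86.5% to 89.5%), 54.2% of FSC (52.1% to 56.2%), 35.3% of C (32% to 38.7%) and 26.9% of L (23% to 31.1%). In E the share was 1.94% (0.783% to 3.95%) at a median of 8246 UMIs per cell, against 13648 in S and 6900 in FSC. The share in Le, 3.46%, lay within the interval of E. The pooled level in Le, 6.74 CPM (exact Poisson interval 4.36 to 9.94), was above the 2.22 of E (0.893 to 4.58). Whether Le exceed background was not tested.

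In S the level of *Rbp4* was 261 and 274 CPM in the female lanes and 683 and 748 in the male lanes. Both male lanes stood above both female lanes, and the lanes of a sex lay close together. The FSC gave 176, 190, 192 and 192 CPM in the same order of lanes, a spread of 7.6 (SD, n = 4 lanes) that held both sexes. In L the female lanes had 145 and 115 CPM and the male lanes 4.54 and 6.17, with no overlap and in the opposite direction to S. The C had 65.1, 53.5, 58.8 and 44.4 CPM, where the lanes of the sexes overlapped. G (5.28 to 19.3), EC (13.5 to 29.7), Le (2.46 to 11.8) and T (0 to 7.58) were low in every lane. The level in E was 0 to 5.39 CPM.

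**Figure D1:**
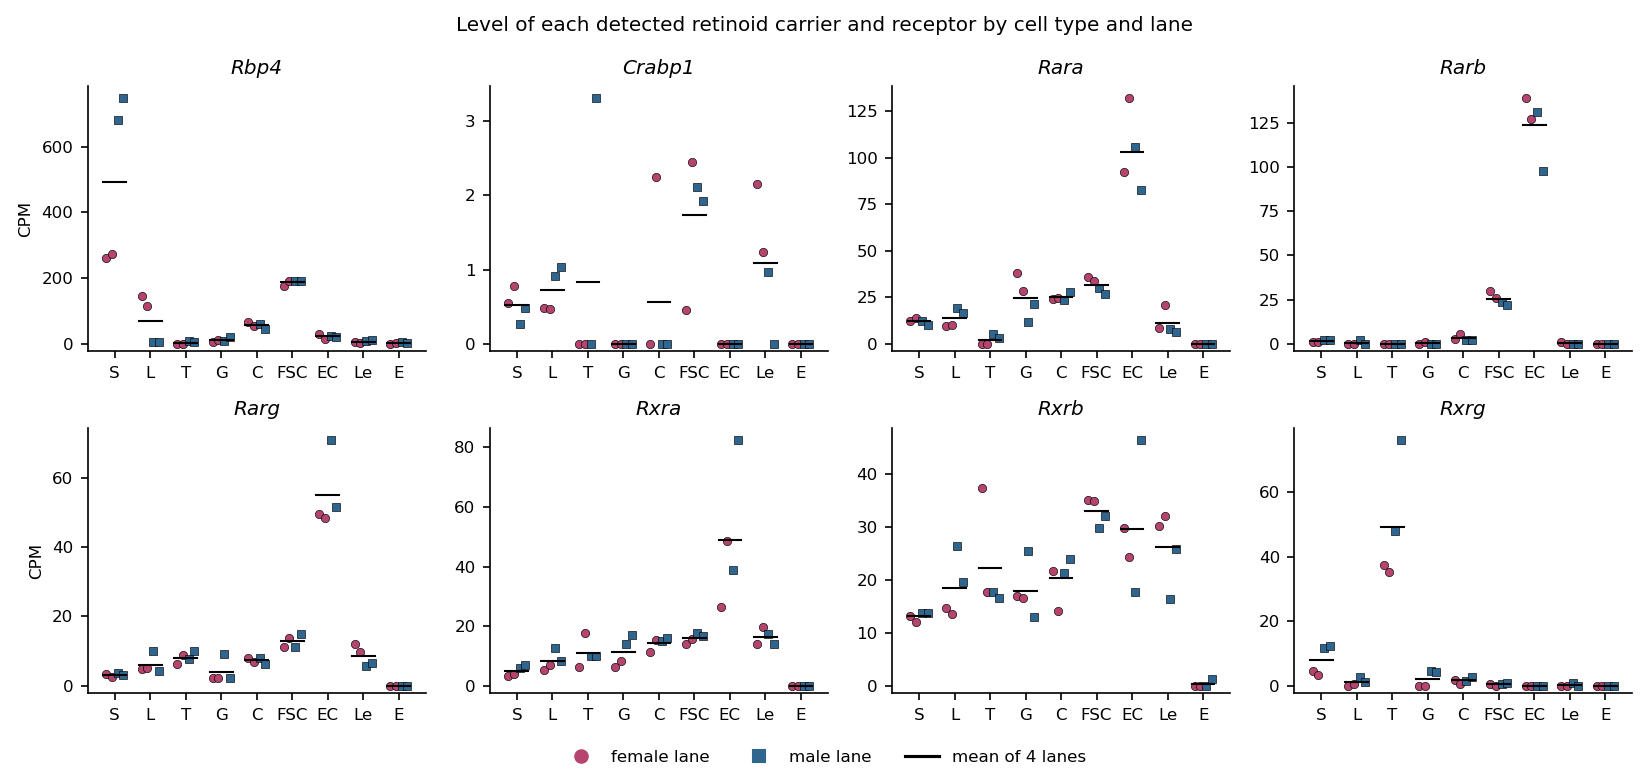
Level of each of the 8 detected members in the 9 cell types, in CPM (linear axis, own scale per gene); circles are the 2 female lanes, squares the 2 male lanes and lines the mean of the 4 lanes. *Rbp4* is highest in male S, the 3 RAR genes and *Rxra* in EC, and *Rxrg* in T.

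The 9 members were tested between the 8 cell types other than E by edgeR's quasi-likelihood test. The test used UMIs summed for each type in each sex, a term for sex, and Benjamini-Hochberg adjustment over 13605 genes. Past an adjusted p below 0.001 were 6 of the 7 members with enough UMIs, where 54.8% of all genes passed: *Rbp4*, *Rara*, *Rarb*, *Rarg*, *Rxra* and *Rxrg*. The exception was *Rxrb* (adjusted p = 0.0142), and *Crabp1* and *Crabp2* were too low to test. Over the 28 pairs of cell types, 42 of 196 tests of members passed, against 14.2% of all tests over genes and pairs.

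For *Rbp4*, only 3 of the 28 pairs passed in this fit, S over EC, G and Le by log2 fold changes of 5.24 to 6.19. Against FSC, L, C and T, S had edgeR adjusted p-values of 0.0431, 0.0568, 0.00532 and 0.00428, not past the test. The study, which tested single cells, lists *Rbp4* as dominant in S. The fit of both sexes has 1 sex term for all types, while the sexes differed in opposite directions in S and L. With each sex fitted alone and lanes as libraries, an alternative added after seeing the data, S was above each of the other 7 types in both sexes (edgeR, adjusted p below 0.001 for each pair), where 24.2% of all tests passed in females and 25.3% in males. S was 2.15-fold above FSC in females (FSC over S, log2 fold change -1.11, SE 0.09) and 5.39-fold above in males (-2.43, SE 0.06). In females L and FSC did not differ past the test (FSC over L, log2 fold change -0.30, SE 0.11, adjusted p = 0.0125), and S was 1.75-fold above L. In males FSC was 30.9-fold above L (log2 fold change 4.95, SE 0.24) and L did not differ past the test from Le, EC, G or T. Male L was near the level of male E, so the size of this fold is not precise.

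The order that follows comes from these fits of 1 sex, whose p-values measure the spread between lanes only. In females the order of *Rbp4* was S, then L and FSC, which did not differ past the test, then C and the low types. In males it was S, FSC, C and the low types, L among them, with C and EC not differing past the test (edgeR adjusted p = 0.00125). In both sexes FSC stood above C, by log2 fold changes of 1.43 (SE 0.12) in females and 1.74 (SE 0.10) in males. No pair among Le, EC, G and T passed in either sex.

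Between the sexes, edgeR compared 2 female with 2 male lanes within a cell type. Of 32 tests of a member in a cell type with enough UMIs, 3 passed, where 5.3% of all tests of genes in the 8 types did. In S *Rbp4* was higher in males with a log2 difference of 1.36 (SE 0.04, 2.57-fold, adjusted p = 4.71e-22), one of 2 members higher in male S, where 4.87% of genes tested were. In L it was lower in males with a log2 difference of -5.23 (SE 0.25, adjusted p = 7.62e-15), where 10.5% of genes tested were lower. The fitted difference is 37.6-fold, and on CPM without TMM scaling female L had 129 and male L 5.3, a ratio of 24.4. Male L held only 11 *Rbp4* UMIs. Its lanes, at 4.54 and 6.17 CPM, were near those of male E, at 5.39 and 2.63. The size of both folds therefore rests on a level near that of free RNA. In FSC and C no difference passed (adjusted p = 0.805 and 0.539).

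The difference between the sexes itself differed between cell types for *Rbp4* (edgeR, interaction of sex with type over FSC, C, G, T, S and L, adjusted p = 3.66e-24). It was the only member of 7 to pass this test, where 11.7% of 13516 genes did. *Rara* and *Rarb* had adjusted p-values of 0.0726 and 0.0487.

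The cells of L also differed in depth, with a median of 18301 UMIs in females and 7268 in males. By share of cells, *Rbp4* was found in 52.9% of 225 female L (46.1% to 59.6%) and 4.26% of 258 male L (2.15% to 7.5%). With every cell thinned to 3000 UMIs the shares were 21.3% and 2.33%, so the difference was present at equal depth. In S the shares were 81.2% of 876 female and 94% of 1013 male cells, and 47.6% and 71.3% after thinning. In FSC they were 52.2% and 56.2%, and 32.9% and 33.5% after thinning. No cell had to be left out of the thinning, since all cells used had at least 3000 UMIs.

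**Figure D2:**
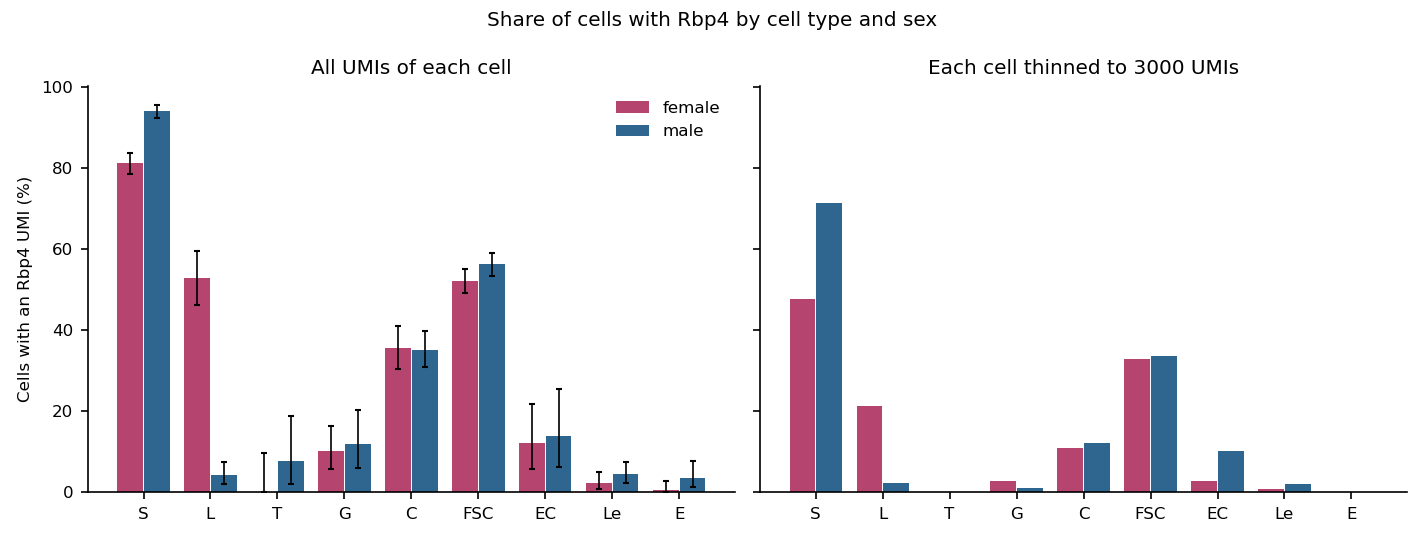
Share of cells with an *Rbp4* UMI (percent) by cell type and sex, with all UMIs (left, bars with exact 95% intervals) and after thinning each cell to 3000 UMIs (right). Male S exceed female S and female L exceed male L in both panels, at 71.3% against 47.6% and 21.3% against 2.33% after thinning.

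*Crabp1*, which encodes the cytoplasmic binding protein CRABP1, had 312 UMIs in the whole table. Of these, 230 (73.7%) lay in 51 cells that the study's marker rule, made of collagen and proteoglycan genes, sets aside under the name of pericytes. A *Crabp1* UMI was found in 24 of the 51 pericytes (47.1%, 32.9% to 61.5%), in 11 of 20 female and 13 of 31 male pericytes, with up to 42 UMIs in 1 cell. Both sexes thus held such cells. *Pdgfrb*, a pericyte receptor gene outside the assignment markers, was found in 36 of the 51 cells and in 16 of the 24 with *Crabp1*. *Rgs5*, another pericyte gene, was found in 14 of the 51 and in 6 of the 24. *Col1a1*, *Col3a1* and *Dcn* were each found in all 51, and whether every one of these cells is a pericyte was not tested. The pooled level was 631 CPM in pericytes (exact Poisson interval 552 to 718, counting error only).

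In the 9 cell types *Crabp1* was found in 24 FSC, 13 S, 4 L, 4 Le, 2 C and 1 T, and in none of the E, EC and G. These shares were 0.252% to 1.15%, and the highest lower bound of their intervals, 0.666% in FSC, was below the share of up to 0.831% that 0 of 361 E allows. In FSC the level was 0.451, 2.45, 2.12 and 1.93 CPM, and the sexes did not differ past the test (log2 fold change 0.47, SE 0.63, adjusted p = 0.698).

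Within FSC the *Crabp1* UMIs lay together. The FSC were clustered without the 9 members, which gave 8 clusters of 17 to 667 cells, and 19 of the 33 *Crabp1* UMIs of FSC fell in a cluster of 55 cells led by *Stmn1*, *H2afz*, *Hmgb2* and *Tubb5*, genes of dividing cells. There the pooled level was 26.1 CPM (15.7 to 40.8) and the gene was found in 10 of 55 cells, against 0 to 1.6 CPM in the other 7 clusters. By lane the level in this cluster was 0, 34.4, 19 and 49.4 CPM, so 3 of the 4 lanes held it. The cells of this cluster were deeper, with a median of 11896 UMIs. All 10 of its *Crabp1* cells had *Sox2* and *Mki67* UMIs, none had *Col1a1* or *Col3a1*, and 1 had *Pdgfrb*. Of its 45 cells without *Crabp1*, 36 had *Sox2* and 29 had *Mki67*. Over all FSC, a UMI of *Col1a1*, *Col3a1*, *Dcn*, *Lum* or *Pdgfrb* was found in 6 of the 24 cells with *Crabp1* (25%) and in 12.4% of those without. The cells with *Crabp1* were deeper (median 16032 against 6887 UMIs). Chosen after these values were seen, a count over all FSC gave 22 *Crabp1* UMIs in 74 cells with *Mki67* or *Top2a*, genes of the cell cycle, and 11 in 2239 cells without. In S, 4 UMIs lay in 109 cells with these genes and 9 in 1780 without. Pericytes had 8 UMIs in 2 such cells and 222 in 49 others, so most of their *Crabp1* lay outside such cells. The other types with *Crabp1* had too few UMIs and too few cells with *Mki67* or *Top2a* to show this pattern or its lack. L had 0 UMIs in 32 such cells and 4 in 451 others, and C 0 in 16 and 4 in 777. Le had 0 in 23 and 4 in 526, and T 0 in 2 and 1 in 85. These are cells of the same 4 lanes and clusters built from the same counts, so no test is given.

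**Figure D3:**
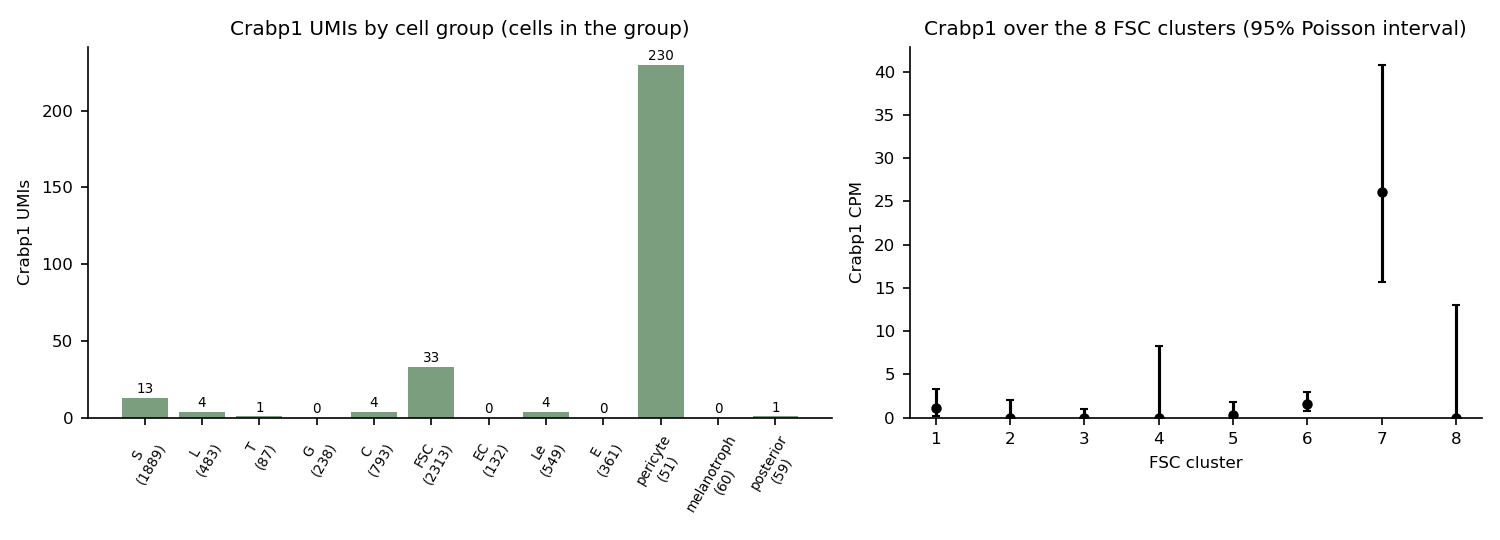
Left, *Crabp1* UMIs in the 9 cell types and in the 3 groups of cells set aside, with the number of cells in brackets; the bar for the 51 pericytes is at 230 and that for the 2313 FSC at 33. Right, *Crabp1* level in the 8 FSC clusters with exact 95% Poisson intervals, where cluster 7 is at 26.1 CPM and each other cluster at or below 1.6.

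*Crabp2*, the gene of the second cellular retinoic acid binding protein, had 0 UMIs among the 86742346 of the table. A count of 0 allows up to 3 UMIs, and in FSC, the type with most cells, a level of up to 0.159 CPM. Whether the annotation behind the counts holds the 3′ end of its transcript was not tested, so this limit applies only if its reads could be counted.

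All 3 retinoic acid receptor genes were highest in EC, and *Rarb* was also higher in FSC than in 5 of the other types. *Rara* had 92.5, 132, 106 and 82.4 CPM in EC, where all lanes stood above those of every other type. FSC followed with 35.7, 33.8, 29.8 and 26.8 CPM, C with 23.4 to 27.6 and G with 11.6 to 38. S (10.2 to 13.8), L (9.77 to 19.1) and Le (6.42 to 20.9) were lower, T had 0 to 5.05 and E had no UMI. A UMI was found in 53% of EC (44.2% to 61.8%) and 21.5% of FSC, against 0 of 361 E, which allows a share of up to 0.831%. EC stood above each of the other 7 types past the test, by 3.04-fold over FSC (log2 fold change 1.61, SE 0.30, edgeR adjusted p = 5.87e-04) to 6.02-fold over Le, and further over T, where female lanes had no UMI. No pair without EC passed for *Rara*, so the neighbours FSC, C, G, L, S and Le in this order did not differ past the test.

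*Rarb*, the RAR gene best known for being itself induced by retinoic acid, had 139, 127, 131 and 97.8 CPM in EC and 29.8, 25.7, 23.8 and 21.8 in FSC. Every EC lane stood above every FSC lane, and every FSC lane above every lane of the other types, the next of which was C with 1.87 to 5.63. S had 0.739 to 2.1 CPM, and G, L and Le each had 0 in 3 of 4 lanes. No UMI was seen in the 87 T or the 361 E. The share of cells was 60.6% in EC (51.7% to 69%) and 18.2% in FSC (16.6% to 19.8%), against 3.4% in C and 2.12% in S. Past the test were 12 of the 28 pairs: EC was 4.5-fold above FSC (log2 fold change 2.17, SE 0.39, adjusted p = 5.79e-04), FSC was 7.41-fold above C (2.89, SE 0.46, adjusted p = 1.36e-04), and both were above Le, G, S and L. No pair among C, S, L, Le, G and T passed.

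The promoter of *Rarb* is shown because it was the only member promoter with the direct repeat that RAR and RXR pairs are known to bind. In the RefSeq sequences of build GRCr8, which is not the build behind the counts, the 250 bases before and 50 after each annotated start were searched on both strands for NGNTCA, with A or G in its first place and G or T in the third, followed after 5 bases by another such stretch in the same direction. All 9 members matched an entry, with 2 entries for *Rarg*. The repeat was found in 1 of the 10 member promoters, and in 0.382% of 33469 promoters of the same length. With 1 or 2 bases between the repeats, it was in none of the 10, and in 0.233% and 0.17% of all. The site in *Rarb* lies at chr15:11336416-11336432 on the plus strand, the strand of the gene, 25 to 41 bases into the transcribed part, with the repeats in capitals:
Rarb repeat: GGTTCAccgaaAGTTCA
A match of letters is a description of the sequence. Absence of these letters from the other windows says nothing of other sites.

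*Rarg* had the same leading type. EC had 49.6, 48.5, 70.9 and 51.5 CPM, above every lane of every other type, and FSC had 11.3, 13.7, 11.3 and 14.9. All other lanes lay between 2.08 and 11.9, except E with no UMI. Its share was 32.6% in EC (24.7% to 41.3%) and 9.51% in FSC. EC was above each of the other 7 types past the test, by 3.95-fold over FSC (log2 fold change 1.98, SE 0.32, adjusted p = 1.60e-04) to 13.8-fold over G. The only other pair to pass was FSC over S, with a log2 difference of 1.43 (SE 0.30, adjusted p = 8.99e-04).

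The 3 RXR genes, whose proteins are the common partners, each had a different pattern. *Rxra* had 26.4, 48.5, 39 and 82.4 CPM in EC, the widest spread of any member there. Le had 13.9 to 19.7, FSC 14 to 17.7, C 11.3 to 16 and S 3.14 to 7.04, and E had no UMI. EC was above S by 5.84-fold (log2 fold change 2.55, SE 0.30, adjusted p = 5.41e-06), and above G and L by 3.71-fold and 3.63-fold, and Le was 3.36-fold above S. EC and Le did not differ past the test (log2 fold change 0.80, SE 0.31, adjusted p = 0.0645), and no other pair passed.

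*Rxrb* was the most even member. Its lanes ranged from 12.1 to 46.3 CPM over the 8 types tested, with means from 13.2 in S to 32.9 in FSC, and the lanes of most types overlapped. It was found in 16% to 23.3% of the cells of each type and in 1 of 361 E. None of its 28 pairs passed, and edgeR's test over types had an unadjusted p of 0.0104. Of the 28 pairs, 8 had an unadjusted p under 0.05. DESeq2 gave an adjusted p of 8.35e-04 for the test over types. On sums per lane edgeR gave an adjusted p of 3.81e-06, with technical lanes counted as separate libraries.

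*Rxrg* was high in T, the cells that make thyroid-stimulating hormone, with 37.3, 35.2, 48 and 76.1 CPM. All 4 T lanes stood above every lane of every other type. S followed with 4.43, 3.31, 11.7 and 12.3 CPM, and the other types had 0 to 4.62, with no UMI in EC or E. The share was 36.8% of 87 T (26.7% to 47.8%), 10.7% of S and 0.182% to 2.02% of Le, FSC, C, G and L. T was above C, FSC, G, L, Le and EC past the test, by 26.9-fold over C (C over T, log2 fold change -4.75, SE 0.58, adjusted p = 1.06e-04), and S was above FSC by 22.9-fold and above Le by 26.7-fold. T over S had a log2 fold change of 2.18 (SE 0.47) and an edgeR adjusted p of 0.0109, which is not past the test. With males alone it passed (1.95, SE 0.31, adjusted p = 2.49e-06) and with females alone it did not (2.50, SE 0.72, adjusted p = 0.0125). The study lists *Rxrg* as dominant in T, again from tests of single cells.

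The sexes differed for *Rxrg* in S, where both male lanes stood above both female lanes. The log2 fold change was 1.56 (SE 0.23, 2.96-fold, edgeR adjusted p = 2.35e-06), and the share of cells was 16.1% in males (13.9% to 18.5%) and 4.45% in females (3.18% to 6.04%), or 4.15% and 1.03% at 3000 UMIs per cell. DESeq2 (adjusted p = 0.00129) and thinned cells (adjusted p = 0.0048) kept the direction but not the call. In T the male lanes were also the higher ones (log2 fold change 0.84, SE 0.51), and the test was not passed (adjusted p = 0.461). The sex difference of *Rxrg* was not shown to differ between cell types (interaction, adjusted p = 0.478).

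Counted by cell rather than by gene, a UMI of any RAR gene was found in 83.3% of EC, 40.4% of FSC, 32% of C, 27.3% of G and 10.9% to 20.4% of Le, T, S and L. A UMI of any RXR gene was found in 50.6% of T, 42.4% of EC and 25% to 34.4% of the other types except E (0.277%). Both kinds together were found in 33.3% of EC, 14.4% of FSC and 3.46% to 10.1% of Le, C, G, T, S and L. Cell types differ in depth, so these shares are a description.

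FSC were compared with the mean of the 5 HPC types, the pair of cell classes that the study set side by side. *Rarb* was higher in FSC (log2 fold change 5.47, SE 0.48, adjusted p = 2.06e-07) and *Rxrg* lower (-3.28, SE 0.57, adjusted p = 2.18e-04). That is 1 of 7 members in each direction, where 17.3% of 13605 genes were higher and 9.19% lower. Since T had no *Rarb* UMI, its fitted fold depends on a prior count. On levels, *Rarb* was at 25.3 ± 3.4 CPM in FSC and 1.53 ± 0.439 in all HPC summed (SD, n = 4 lanes), a ratio of 16.6. *Rxrg* was at 0.458 ± 0.347 in FSC and 6.39 ± 4.27 in HPC, with HPC higher in all 4 lanes. The call of *Rxrg* was lost without the smaller male lane (edgeR adjusted p = 0.00216), without the larger one (0.00152) and in thinned cells (0.00462). In females alone, where G had no UMI, the fit could not estimate the difference (log2 fold change -1.92, SE 176.51). The female lanes had 3.18 and 2.27 CPM in summed HPC against 0.677 and 0 in FSC.

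The other 5 members tested were not past the test, with log2 fold changes of 1.88 (SE 0.62) for *Rbp4*, 0.99 (SE 0.24) for *Rarg*, 0.53 (SE 0.20) for *Rxra* and 0.58 (SE 0.17) for *Rxrb*, and a fold of 2 (SE 0.25 on the log2 scale) for *Rara*. For *Rbp4* the fit weighs the 5 HPC types alike, so T and G count as much as S. Summed over all HPC cells the level of *Rbp4* was 173 and 174 CPM in the female lanes and 438 and 497 in the male lanes, below that of FSC in both female lanes and above it in both male lanes. The levels of *Rara*, *Rarg*, *Rxra* and *Rxrb* were higher in FSC than in summed HPC in 4 of 4 lanes each, with ratios of 2.04, 2.86, 2.07 and 2.1. These ratios are on CPM without TMM scaling. With TMM and the 5 HPC types weighed alike, the fitted folds were 2, 1.99, 1.44 and 1.49. Hormone RNA counts in the CPM of HPC. Without the 7 hormone genes the mean level of *Rxrb* rose from 13.2 to 18.9 CPM in S and from 32.9 to 33.1 in FSC. How much of each ratio this accounts for was not tested. With lanes as libraries all 7 members passed, where 47.6% of all genes did. With the lane as a block, added after seeing the data, 6 of 7 did, where 45% of all genes did. The exception was *Rxra* (edgeR adjusted p = 0.00181). Both fits count the technical lanes of a pool as separate libraries.

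**Figure D4:**
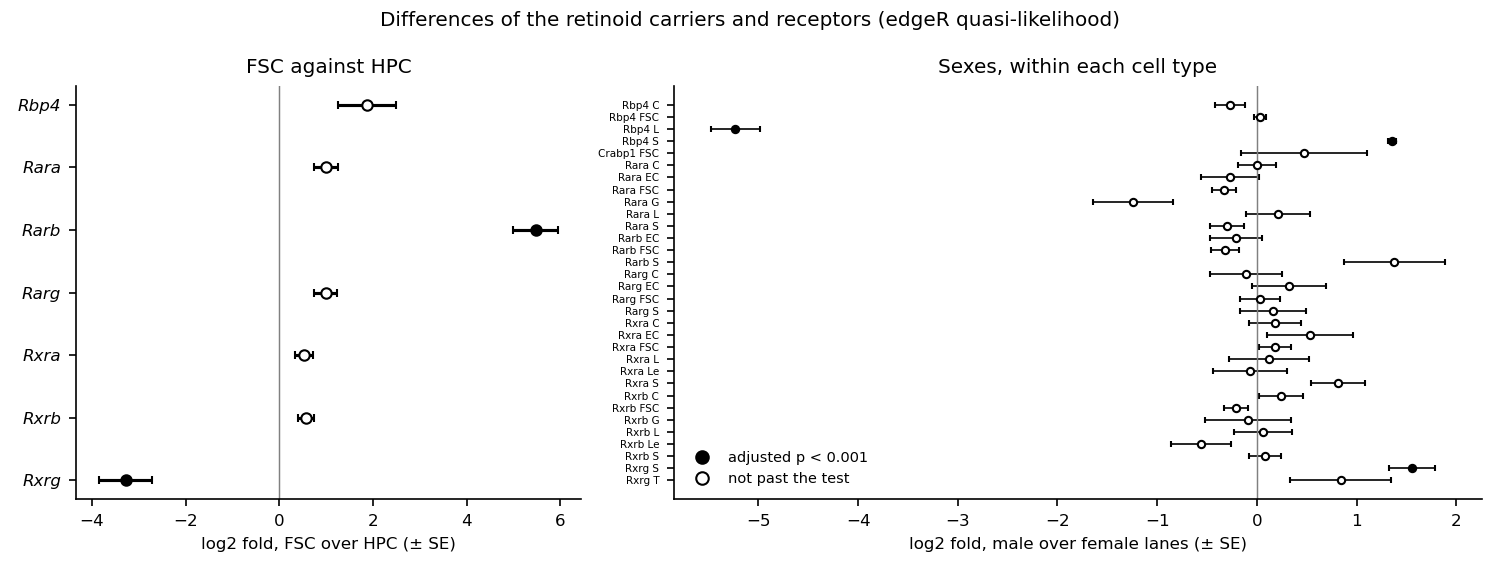
Log2 fold changes with SE of the members tested, FSC over the mean of 5 HPC types (left) and male over female lanes within each cell type (right). Filled points are past an adjusted p below 0.001: *Rarb* and *Rxrg* on the left, and *Rbp4* in L and S and *Rxrg* in S on the right.

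Among the 8 FSC clusters, *Rbp4* ranged from 56.3 to 328 CPM. It was 263 (246 to 282) in a cluster of 454 cells led by *Apoe*, *Gpha2*, *S100b* and *Nnat*, and 124 (111 to 139) in a cluster of 384 cells led by the immediate early and stress genes *Gadd45g*, *Zfp36*, *Junb* and *Socs3*. In the first the lanes ran from 248 to 276 CPM and in the second from 100 to 151, without overlap. Clusters with like leading genes did not keep this contrast. A cluster of 238 cells also led by *Apoe* and *Gpha2* had 123 CPM (107 to 140). Another of 449 cells, also led by *Gadd45g* and with *Socs3* next, had 204 (189 to 219). *Rarb* was 35.4 in the stress gene cluster of 384 cells and 17.3 (14.2 to 20.9) in the largest cluster, led by *Epcam*, *Cd24* and *Krt18*. It was also 35.2 (27 to 45.2) in the cluster of 238 cells led by *Apoe* and *Gpha2*. In the cluster of 449 cells led by *Gadd45g* it was 24 (19.2 to 29.6). *Rarg* was 16.5 (13.4 to 20) in the *Epcam* cluster and 11.2 (7.54 to 16) in the stress gene cluster, with overlapping intervals and lanes. Clusters 1 and 2 came mostly from female lanes and cluster 3 from male lanes (199 and 231 of its 449 cells), so clusters and sexes are not independent.

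The cells set aside added to the pattern of the receptors. In the 51 pericytes *Rarb* was found in 22 cells (43.1%, 29.3% to 57.8%) at 85 CPM (57.8 to 121), and *Rara* in 23 cells at 76.8 (51 to 111). Both intervals lay above the levels of FSC. *Rxrg* had no UMI in pericytes. *Rbp4* was found in 14 of them (27.5%, 15.9% to 41.7%) at 82.3 CPM (55.5 to 117). The 60 melanotrophs, of which 56 came from male lanes, had no *Crabp1* or *Rarb* UMI and 13 of *Rara*. In the 59 posterior pituitary cells *Rbp4* was found in 32.2%, and *Rara*, *Rxra* and *Rxrb* each in 25.4%.

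The genes around the members were counted from lists of the retinoid pathway, and each count is to be read beside the 17.3% of all genes tested that were higher in FSC. Retinol uptake, binding and storage had 11 genes, of which 4 were tested, and none was lower in FSC than in HPC. *Rlbp1*, a retinaldehyde binding protein, was higher, at 15.4 to 20.1 CPM in FSC and 0.281 to 0.948 in HPC (log2 fold change 4.62, SE 0.39, edgeR adjusted p = 2.88e-07). Of 20 genes of retinaldehyde and retinoic acid synthesis, 11 were tested, and 5 were higher in FSC and none lower. *Aldh1a2*, which makes retinoic acid, was at 129 to 169 CPM in FSC and 0.651 to 1.18 in HPC, a ratio of mean levels of 176. *Aldh1a1* was at 293 to 403 and 1.68 to 16.4 (log2 fold change 6.34, SE 0.52), and *Aldh8a1* at 4.82 to 6.99 and 0.326 to 1.12, a ratio of 8.47. *Aldh1a2* was also one of the markers used to check the FSC. The median log2 fold change was 1.24 over the 11 synthesis genes tested, against 0.09 over all genes.

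None of the 3 *Cyp26* genes, whose enzymes break down retinoic acid, had enough UMIs to test. Of 16 genes known to respond to retinoic acid, 9 were tested, and 6 were higher in FSC and none lower. Examples were *Pdk4* (37.2 to 55.5 CPM in FSC, 0.0935 to 0.711 in HPC), which limits glucose oxidation, and *Rarres2*, the gene of chemerin (42.8 to 58.1 and 0.493 to 1.79). The median log2 fold change of these 9 was 2.26. Of 13 receptor coregulators, 12 were tested and 2 were higher in FSC, *Crebbp* by 1.83-fold and *Tbl1x* by 1.81-fold, with none lower and a median of 0.33, a share near the 17.3% of all genes. Of 13 nuclear receptors that pair with RXR, 8 were tested. *Nr1h3* and *Nr1h2*, the oxysterol receptors, were higher in FSC, with levels 17.6 and 4.52 times those of HPC, and so was *Thra* (log2 fold change 1.09, SE 0.21). The median over the 8 was 0.62. *Thrb*, a thyroid hormone receptor, was lower in FSC (-2.19, SE 0.25), at 6.54 to 11.5 CPM against 44.3 to 56.2 in HPC. Only T (96.8 to 129), S (63.2 to 68.7) and L (42 to 95.4) were high. G had 8.57 to 24.9, overlapping FSC, and C had 3.36 to 6.19, below every FSC lane.

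**Figure D5:**
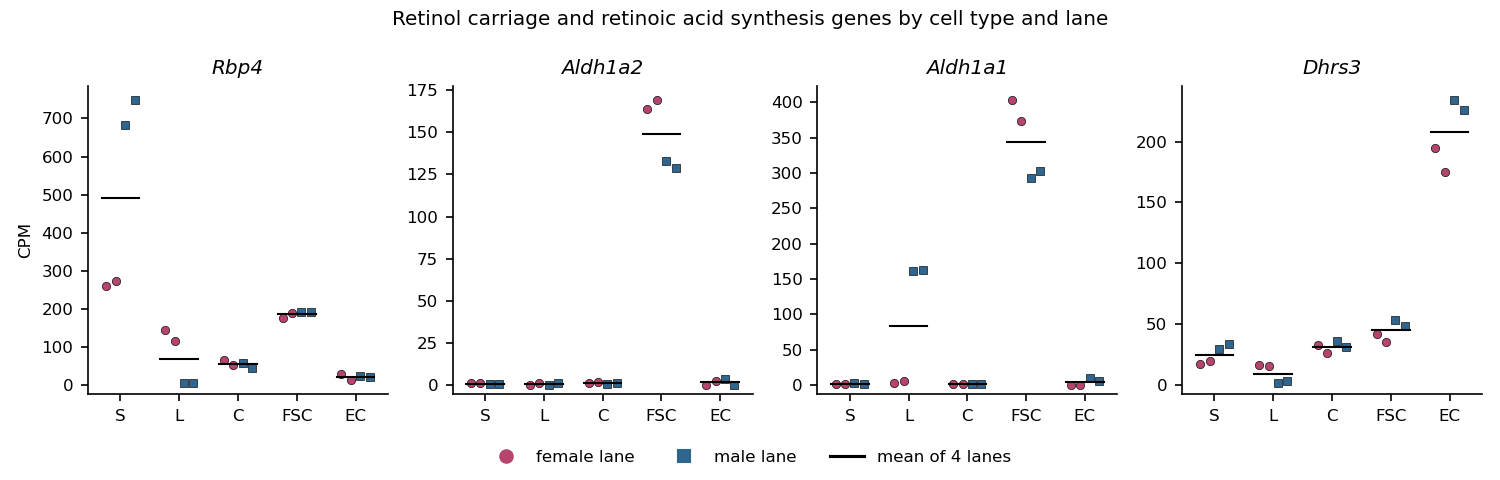
Level in CPM (linear axis, own scale per gene) of *Rbp4*, *Aldh1a2*, *Aldh1a1* and *Dhrs3* in S, L, C, FSC and EC; circles are female lanes, squares male lanes and lines the mean of 4 lanes. *Aldh1a1* is high in FSC and in male L, where *Rbp4* and *Dhrs3* are low.

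Between the sexes in L, where 15.4% of genes passed, 2 of 5 tested genes of the synthesis list did, 1 in each direction. The lower one, *Dhrs3*, is on that list but acts in the reverse direction. *Aldh1a1* was higher in male L (2.93 and 6.08 CPM in the female lanes, 161 and 163 in the male lanes), with a log2 difference of 4.49 (SE 0.23, adjusted p = 4.37e-14). *Dhrs3*, which turns retinaldehyde back to retinol, was lower in male L (16.1 and 15.9 against 1.82 and 3.08, log2 fold change -3.33, SE 0.47, adjusted p = 3.16e-06). Both thus had lanes that did not overlap, *Dhrs3* in the direction of *Rbp4* and *Aldh1a1* in the opposite one. In S, where 10.6% of genes passed, the 2 listed genes with the largest change were *Nr4a2* (11.9 to 13.1 CPM in females, 106 to 108 in males) and *Nr4a1* (51.3 to 55.4 and 219 to 250), nuclear receptors that early stimuli induce. In FSC, where 2.79% passed, *Nr4a1* and *Aldh1a1* were lower in males, by 1.5-fold and 1.34-fold. In C, *Nr4a1* and *Nr4a2* were lower in males by 2.27-fold and 1.91-fold, and in T *Nr4a1* was higher by 5.72-fold. In S *Nr4a1* and *Nr4a2* went in the direction of *Rbp4* and *Rxrg*. In L *Nr4a1* had 126 and 104 CPM in the female lanes and 364 and 356 in the male lanes. *Nr4a2* had 64.5 and 56.1 there against 136 and 135, so both went opposite to *Rbp4* in L. The part of these 2 genes in the results for *Rbp4* and *Rxrg* was not tested.

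The genes whose levels ran most like those of a member, by Pearson's r of log2(CPM + 1) over the 16 sums of type and sex, were *Dock6* (r = 0.982) and *Ctgf* (0.978) for *Rarb*, *Foxo1* (0.937) for *Rara*, *Cnot6* (0.967) for *Rarg*, *Wdr82* (0.954) for *Rxra*, *Ublcp1* (0.941) for *Rxrb* and *Fam151a* (0.925) for *Rxrg*. For *Rbp4* the highest was *Adamtsl4*, at 0.845. The 16 points share lanes and differ in depth, and the sums of EC and T are the smallest.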

How the data were processed

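Dispersed cells of 1 female and 1 male pool were run on 2 lanes each. The authors made the deposited UMI counts with Cell Ranger 2.1 against a rat NCBI annotation extended at 3′ ends, and combined lanes with mapped reads equalized; the deposited counts are whole numbers. Lanes were matched to sexes by their numbers of cells, which the study states. Cells were assigned by the study's marker rules (Otsu thresholds, 256 bins), with 30 nearest neighbours for unassigned cells. Of 7861 cells, 205 were ambiguous, 185 were called doublets, 274 were outliers by mitochondrial share and 328 by depth. One further marker, *Col1a3*, was not used here. Genes were kept by filterByExpr (minimum count 10) and tested with edgeR 4.0.16 (TMM, quasi-likelihood, 2-sided, adjusted by Benjamini and Hochberg over all genes, limit 0.001); the SE is the log2 fold change divided by the root of F. DESeq2 1.42.0 was an alternative. FSC clusters came from scanpy 1.11.5 (2000 variable genes, 20 components, 15 neighbours, Leiden resolution 0.5). The fits were also run on simulated counts, drawn independently for each lane and, for the type fits, without a sex difference. The real counts differ in both points, which the run therefore does not cover. Intervals and limits for a count of 0 (3 UMIs or cells) cover counting error only. Named beside the members are, per list, up to 3 genes each way with the largest change between FSC and HPC among those called, up to 2 per cell type between the sexes, and the genes most like a member; 1 gene that this rule names is not reported here. Members and lists were chosen with earlier results of these data known.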

Additional observations from a re-analysis of the deposited data

Results flagged for a closer look

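*Rbp4* was singled out because its sex difference differed between cell types by a test of that difference (edgeR, interaction over 6 pituitary cell types, adjusted p = 3.66e-24). It was higher in both male lanes in S (683 and 748 CPM against 261 and 274) and higher in both female lanes in L (145 and 115 against 4.54 and 6.17), while the FSC lanes lay between 176 and 192. The interaction passed in each of the 11 other fits made, which include leaving out each lane and a block for the lane. L of females also had the deeper cells, and after thinning to 3000 UMIs the shares of L with the gene were 21.3% and 2.33%. Sex, pool and age cannot be told apart in this design.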

How the results depend on the processing

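No paired analysis was possible because the replicate number of each lane is not known, so female and male lanes were not paired. Cell types of 1 lane were compared through a term for sex, and in an alternative added after seeing the data through a block for the lane. The count of members called between FSC and HPC, 2 of 7 where 26.5% of all genes passed, depended most on the setting. It was 4 with library size in place of TMM (26.5% of all genes), 4 without a filter on low counts (21.2%), 7 with sums per type and lane (47.6%), 6 with these sums and the lane block (45%) and 7 at an adjusted p below 0.05 (48.7%). In alternatives added after seeing the data it was 5 in females alone (40.6%) and 4 in males alone (46.2%). These last fits and those on sums per lane count technical lanes as separate libraries. Leaving out 1 lane gave 1 to 2: the call of *Rxrg* was lost without the larger male lane (adjusted p = 0.00152) and without the smaller one (0.00216), and *Rarg* passed without the latter (4.73e-04). The call of *Rxrg* was also lost in thinned cells, and in females alone its difference could not be estimated. At an adjusted p below 0.05, calls between the sexes rose from 3 to 6, where all tests passing rose from 5.3% to 13.8%, and of the interaction from 1 to 2, where all genes passing rose from 11.7% to 25.6%. With the lane block the interaction had 1 call, *Rbp4*. Between cell types 5 to 7 members were called (7 with the lane block), where 44.3% of all genes passed without a filter and 83.4% with sums per lane, and *Rxra* was lost in thinned cells (adjusted p = 0.0291). Library size moved the median log2 difference over all genes tested from 0.09 to 0.39 between FSC and HPC, and the genes higher and lower from 2352 and 1250 to 2825 and 774. In L it moved the median from 0.02 to 0.67 and the split from 420 and 908 to 2008 and 291, and in FSC the split from 139 and 221 to 183 and 192; *Rbp4* in L was then at -4.58. Members found in at least 20% of the cells of a type numbered 7, and 3 in cells thinned to 3000 UMIs. With 1 pool per sex no value carries the spread between animals, and with 132 EC and 87 T their levels are the least precise.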
